A study of Mus musculus with 2 samples.

Results

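The collagen genes are the 44 features, of 40276 in all, whose symbol is Col followed by a type number, the letter a and a chain number. They were followed in 2 mouse tissue sections, 1 of normal brain and 1 of normal heart, each 5 µm thick and cut from formalin-fixed, paraffin-embedded (FFPE) tissue, a treatment that crosslinks RNA and leaves it in fragments. Random primers copied the total RNA on the section itself, each cDNA took the barcode of its spot, and for both sections the labels give a reverse transcription primer that lacked cell barcode 2. Each tissue is 1 library (n = 1), no treatment of an animal is named, and strain, age and the number of animals are not given in the sources used here. A spot is a small region that can hold several cells or part of one.

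Collagens are the main structural proteins of the extracellular matrix. A collagen molecule is a coil of 3 chains, each with glycine repeated at a fixed step along its helical part, and the family is divided by what the molecules build. Fibrillar types make the cables of connective tissue, type IV makes the sheet under epithelium and endothelium and around muscle cells, type VI makes beaded filaments around cells, fibril-associated types coat the cables, and transmembrane types sit in the cell surface. In the heart, fibrillar collagen lies between muscle fibres and in valves and vessel walls. In the brain it is found mainly in the meninges and around larger vessels, while type IV surrounds capillaries.

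Spots were kept where they held at least 500 counts and 200 features: 4080 in brain, with 37143546 counts in all and a median of 5981, and 3726 in heart, with 44613867 counts and a median of 9049.5. Both arrays carry the same 4992 barcodes, and 3342 were kept in both sections, so a barcode names a place on an array and not a cell. The labelled tissues were met by their markers: all 11 neuron genes listed were higher in brain (4126 CPM summed against 167) and all 12 cardiomyocyte genes in heart (28790 against 955). Levels are given as CPM, counts of a gene in every 1000000 counts of its section. Every interval below is a 95% interval for counting error only, and holds only if counts are separate molecules. Each tissue being 1 library, the differences are not checked against replicates, and p-values are not given. Fewer cells of a type and less RNA per cell cannot be told apart.

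All 44 genes had counts in both sections, from 23 (Col10a1) to 5816 (Col25a1) in brain and from 37 (Col10a1) to 6011 (Col4a1) in heart. Their sum was 890.4 CPM in brain (33073 counts) and 1304.5 CPM in heart (58199 counts), 0.0890% and 0.130% of all counts. The sum was 1.47-fold higher in heart (1.45 to 1.485). Ribosomal, mitochondrial and small structured RNA took 38.01% of brain counts and 59.4% of heart counts, so scaling to the other counts adds 0.61 to every log2 ratio of heart over brain. On that scale the sum was 2.24-fold higher in heart. The median log2 ratio of the 44 genes was 0.42, where the 11925 features that averaged 5 CPM or more had -0.43, and outside structured RNA the medians were 1.03 and 0.18. Of the 44 genes 32 were higher in heart and 12 in brain, and outside structured RNA 42 and 2. Of the 11925 features 4111 were higher in heart and 7814 in brain, and on the second scale 6850 and 5075. Those features passed a floor of 5 CPM that was not set for the 44 genes.

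Much of the sum lay no denser along the genes than counts do over genes of the nose. The 1551 olfactory and vomeronasal receptor genes gave 0.0665 CPM per kb of gene span in brain and 0.0860 in heart, and at that density the spans of the collagen genes would hold 357 CPM in brain, 40.1% of the collagen sum, and 461 CPM in heart, 35.4%. With this amount subtracted the sum was 1.57-fold higher in heart, 843 against 537 CPM. At least 2 times the receptor density was reached by 20 collagen genes in brain, where 61.5% of protein-coding genes reached it, and by 21 in heart, where 52.1% did. The sections shared 13 of these, Col1a1, Col1a2, Col2a1, Col11a2, Col4a1, Col4a2, Col6a1, Col6a2, Col6a6, Col8a1, Col9a2, Col14a1 and Col19a1. Heart alone had Col3a1, Col5a1, Col5a2, Col5a3, Col4a4, Col4a5, Col6a3 and Col15a1, and brain alone had Col11a1, Col8a2, Col9a3, Col12a1, Col16a1, Col20a1 and Col25a1. The other 16 genes stayed under it in both sections, at 0.887 to 1.89 times the receptor density: Col24a1, Col27a1, Col4a3, Col4a6, Col6a4, Col6a5, Col7a1, Col10a1, Col9a1, Col22a1, Col13a1, Col17a1, Col23a1, Col18a1, Col26a1 and Col28a1. How all protein-coding genes divide between both sections, 1 section and neither was not counted, so this split is not read as particular to collagens.

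**Figure D1:**
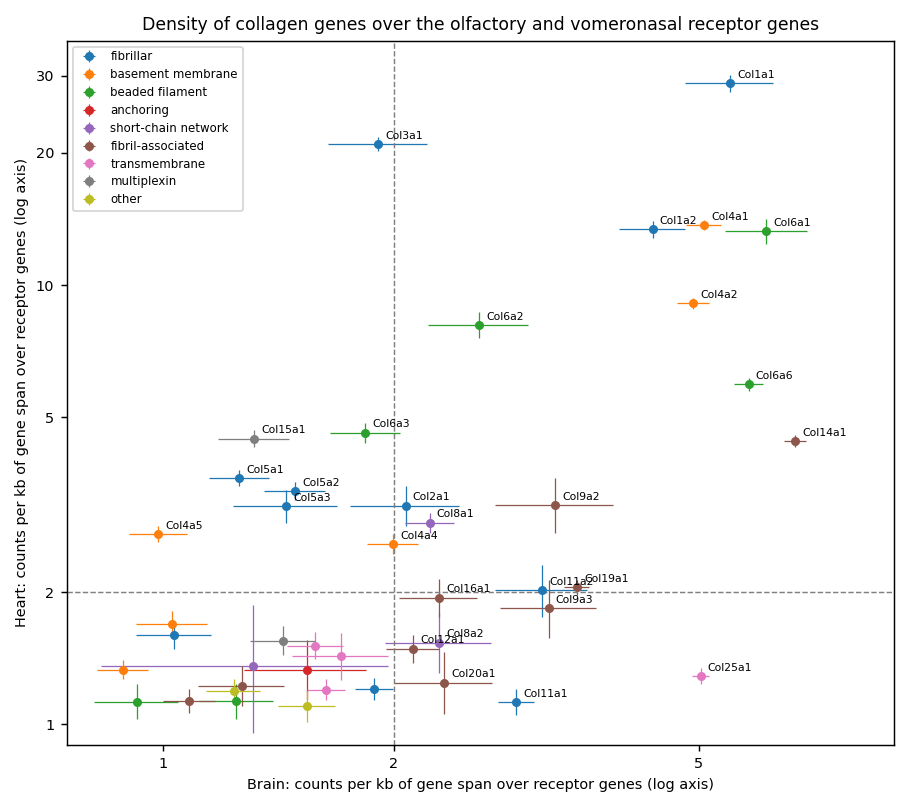
Counts per kb of gene span over those of the receptor genes, in brain (x, log axis) and heart (y, log axis), 1 point per collagen gene coloured by class, with 95% intervals for counting error; dashed lines mark 2 times the receptor density. Col1a1 and Col3a1 stand highest in heart, at 28.8 and 20.95 times, and Col14a1 highest in brain, at 6.68 times.

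A rule of size called a gene higher in a section at 4-fold or more with at least 20 CPM there. It called 3 of the 21 collagen genes it could test higher in heart, Col1a1, Col3a1 and Col15a1, where 5.41% of all 6345 features were called in that direction, and 0 higher in brain, where 17.2% were. With every spot given the same weight Col3a1 alone was called. Outside structured RNA 12 of 34 collagen genes were called in heart (9.16% of features) and 0 in brain (8.44%). A looser rule of 2-fold with at least 5 CPM called 14 of 39 higher in heart (11.4%) and 1, Col25a1, in brain (28.8%), and outside structured RNA 23 of 43 in heart (28.2%) and 0 in brain (12.5%). Direction was kept in up to 5 other settings (the structured RNA scaling, all barcodes, a stricter spot threshold, equal weight of spots, background subtracted) by 27 of the 32 genes higher in heart, and by 2 of the 12 higher in brain, Col25a1 and Col11a1. For Col4a5, Col4a6 and Col6a4 the brain level was under the background, so 4 settings gave a value. The structured RNA scaling adds 0.61 to every log2 ratio, so a gene higher in brain by less than that must turn, and a gene higher in heart cannot. No gene turned with all barcodes or the stricter spot threshold. The 5 heart genes that turned did so with equal weight of spots or background subtracted. All 10 brain genes that turned, at log2 ratios of -0.532 to -0.0745, turned in that setting. The share of all features that kept their direction was not counted.

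The 3 genes at the ends of this comparison are shown with the bases just before their start sites: Col3a1, with the largest ratio towards heart, and Col25a1 and Col11a1, the pair that kept the brain direction in every setting. The sequences are RefSeq promoters on GRCm38.p6, the 250 bases before the start on the plus strand, outside annotated exons, with motifs in capitals. They lie at chr1:45311288-45311537, chr3:130180595-130180844 and chr3:114030290-114030539.
Col3a1: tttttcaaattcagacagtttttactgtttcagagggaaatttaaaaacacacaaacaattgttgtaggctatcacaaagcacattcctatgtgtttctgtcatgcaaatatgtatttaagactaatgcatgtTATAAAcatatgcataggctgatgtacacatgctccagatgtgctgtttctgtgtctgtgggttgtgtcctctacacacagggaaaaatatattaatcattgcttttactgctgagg
Col25a1: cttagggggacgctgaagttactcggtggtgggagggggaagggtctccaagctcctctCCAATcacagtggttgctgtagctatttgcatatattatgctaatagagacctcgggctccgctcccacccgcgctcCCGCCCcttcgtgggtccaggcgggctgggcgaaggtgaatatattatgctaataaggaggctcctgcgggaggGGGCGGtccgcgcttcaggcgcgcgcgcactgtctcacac
Col11a1: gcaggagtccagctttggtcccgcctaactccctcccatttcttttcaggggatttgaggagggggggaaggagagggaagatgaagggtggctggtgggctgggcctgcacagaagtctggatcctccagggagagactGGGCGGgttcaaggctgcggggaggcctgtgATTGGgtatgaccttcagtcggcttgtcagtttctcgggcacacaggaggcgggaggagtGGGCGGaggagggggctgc
Letters of 3 common promoter elements were searched on both strands. The TATA box was taken as TATAAA, the letters bound by the TATA-binding protein in many tissue-specific promoters. The CAAT box was taken as CCAAT, the letters known to be bound by the nuclear factor Y complex. The GC box was taken as GGGCGG, the core of sites for Sp1 and related zinc finger factors. No matches overlapped in these windows. All matches given here are of letters only, and binding was not tested. In the Col3a1 window the TATA box letters begin 117 bases before the start. In the Col25a1 window the CAAT box begins 191 bases before it, and GC boxes lie at 40 bases on the plus strand and at 114 on the minus strand. The Col11a1 window holds a CAAT box on the minus strand at 79 bases and GC boxes at 110 and 19. The Col3a1 window was 35.2% G and C with 0 CG pairs, the Col25a1 window 60.4% with 18, and the Col11a1 window 62.4% with 7. Among all 32851 windows of this length 12.4% held the TATA box letters, 33.8% those of the CAAT box and 32.7% those of the GC box, and of 38 windows matched to 35 collagen genes 5, 13 and 22 did.

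Fibrillar genes held the widest differences, with types I, III and V higher in heart. Col3a1, the single chain of type III, which joins type I in pliable tissues, was at 4.85 CPM in brain (4.16 to 5.61) and 68.7 CPM in heart (66.3 to 71.2), 14.2-fold higher (12.2 to 16.6). Col1a1, which gives 2 of the 3 chains of type I, the commonest fibre of connective tissue, was at 6.14 CPM in brain (5.37 to 6.99) and 41.6 CPM in heart (39.7 to 43.5), 6.78-fold higher (5.90 to 7.81). With equal weight of spots its log2 ratio was 1.66, where it was 2.76 over summed counts. Col1a2, the other type I chain, was at 10.6 and 42.3 CPM, 3.98-fold higher in heart (3.57 to 4.45) and just under the 4-fold line, and with equal weight of spots its log2 ratio was 0.87 in place of 1.99. For none of these 3 genes did the intervals of the sections overlap.

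Type V sits inside type I fibrils and limits their width. Col5a1 was at 12.8 CPM in brain against 47.8 in heart, 3.73-fold higher (3.38 to 4.13), and Col5a2 at 12.8 and 37.7, 2.95-fold higher (2.67 to 3.28). Col5a3, the less common chain, was at 4.33 and 12.1 CPM, 2.80-fold higher in heart (2.35 to 3.36). In brain all 3 lay under 2 times the receptor density, and after its subtraction Col5a1 was 13.2-fold higher in heart.

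The cartilage fibrils of types II and XI were divided. Col2a1, the chain of type II, was at 4.01 CPM in brain against 7.87 in heart, 1.96-fold higher (1.61 to 2.39), a direction kept in every setting. Col11a1, a type XI chain that starts fibrils in cartilage and other tissues, was at 36.5 CPM in brain (34.6 to 38.5) and 18.4 in heart (17.1 to 19.7), 1.99-fold higher in brain (1.82 to 2.17) and 1.30-fold higher outside structured RNA. In heart it lay at 1.12 times the receptor density, and in brain at 2.89 times. Col11a2, its partner, was at 5.65 and 4.73 CPM, with a ratio of heart over brain of 0.837 (0.688 to 1.02), which turned to 1.28 outside structured RNA. Of the minor fibrillar chains, Col24a1 was at 32.5 and 26.8 CPM and 1.21-fold higher in brain (1.12 to 1.315), a direction that turned outside structured RNA to 1.26-fold higher in heart. Col27a1, a cartilage chain, was at 8.32 and 16.6 CPM and 2.00-fold higher in heart (1.75 to 2.29).

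**Figure D2:**
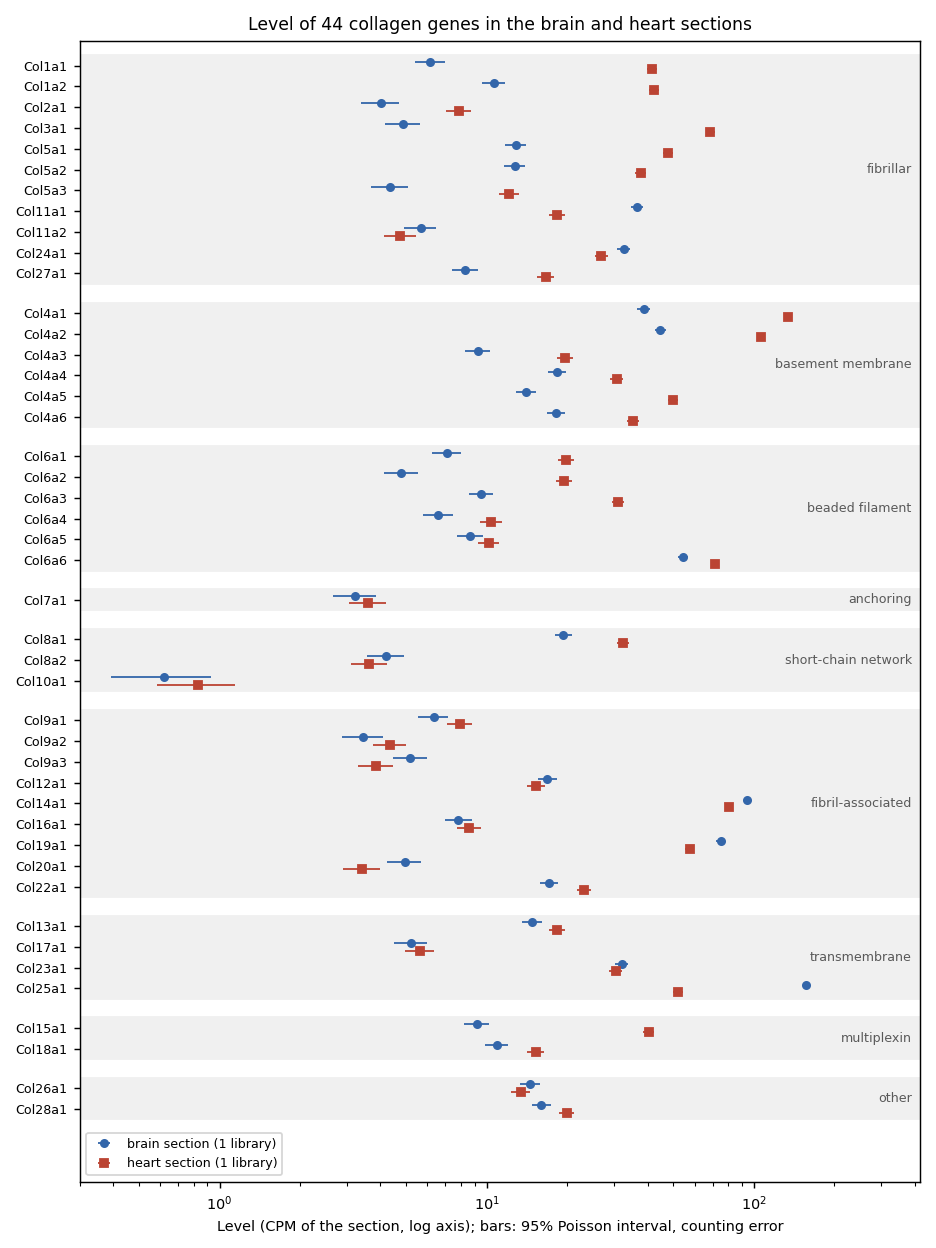
Level of each of the 44 collagen genes in CPM (x, log axis) in the brain section (circles) and the heart section (squares), 1 library each, grouped by class, with 95% Poisson intervals for counting error. Col3a1, Col1a1 and Col15a1 lie furthest to the right in heart relative to brain, and Col25a1 furthest in brain relative to heart, at 157 against 51.9 CPM.

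All 6 type IV genes were higher in heart. Col4a1 and Col4a2, which together form the basement membrane of every capillary, had the highest CPM of the collagen genes in the heart section. They ranked 1 and 2 there per kb of exon, and 3 and 6 per kb of gene span. Col4a1 was at 38.6 CPM in brain (36.7 to 40.7) and 135 in heart (131 to 138), 3.49-fold higher (3.29 to 3.70), and Col4a2 at 44.6 and 107 CPM, 2.39-fold higher (2.26 to 2.53). In both sections the 2 stood well over background, at 5.08 and 4.92 times the receptor density in brain and 13.7 and 9.09 times in heart. Their start sites overlap head to head by 22 bases on chromosome 8 in the older annotation, and strand is not stated to have been used in counting, so reads of the shared start cannot be assigned. The same holds where Gm15419 lies opposite 13.7% of the Col4a2 span, Gm15418 opposite 5.32% of the Col4a1 span and C430014B12Rik opposite 22.3% of the Col4a3 span. Col4a5 is a chain of the kidney and muscle basement membranes. It was at 14.03 and 49.9 CPM, 3.56-fold higher in heart (3.23 to 3.92), and at 0.986 times the receptor density in brain. Col4a6, its neighbour on the X chromosome, was at 18.2 and 35.3 CPM (1.94-fold, 1.77 to 2.13). Col4a3 was at 9.23 and 19.7 CPM (2.13-fold, 1.88 to 2.42) and Col4a4 at 18.4 and 30.6 (1.67-fold, 1.52 to 1.83), the chains that pair with Col4a5 in the kidney filter.

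Type VI filaments are laid around muscle fibres and other cells, and their 3 main chains were higher in heart. Col6a1 was at 7.08 CPM in brain against 19.8 in heart, 2.80-fold higher (2.44 to 3.22). Col6a2 was at 4.79 and 19.4 CPM, 4.06-fold higher (3.45 to 4.79), and missed the rule of size by its level of under 20 CPM. With equal weight of spots the log2 ratio of Col6a2 was 1.11 in place of 2.02. Col6a3, the largest chain, was at 9.53 and 31.0 CPM, 3.25-fold higher (2.89 to 3.66). The chains that can take the place of Col6a3 differed less. Col6a6 had the highest CPM of the type VI genes in both sections, at 54.2 in brain (51.9 to 56.6) and 71.7 in heart (69.2 to 74.2). It was 1.32-fold higher in heart (1.25 to 1.40), with 5.81 and 5.94 times the receptor density. By that density Col6a1 stood above it in both sections, at 6.13 and 13.3 times, and Col6a2 in heart, at 8.11 times. Col6a4 (6.60 and 10.4 CPM) and Col6a5 (8.67 and 10.2 CPM) lay at 0.924 to 1.25 times that density, and the direction of Col6a5 turned when it was subtracted.

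Fibril-associated genes were close to even, with 5 of 9 higher in brain and all 9 higher in heart outside structured RNA. Col14a1, which binds the surface of type I fibrils, was at 94.6 CPM in brain (91.5 to 97.8) and 80.9 in heart (78.3 to 83.6), 1.17-fold higher in brain (1.12 to 1.225), and turned outside structured RNA to 1.31-fold higher in heart. Col19a1, a basement membrane zone collagen that some neurons of the brain also make, was at 75.03 and 57.5 CPM, 1.31-fold higher in brain (1.24 to 1.38), and turned to 1.17-fold higher in heart outside structured RNA. Col12a1, a partner of type I under mechanical load, was at 16.9 and 15.3 CPM and Col22a1, found at junctions of muscle and tendon, at 17.2 and 23.2. Col16a1 was at 7.83 and 8.58 CPM, and the cartilage type IX chains Col9a1 and Col9a3 at 6.33 and 7.91 and at 5.17 and 3.86. The ratios of these 5 lay between 0.746 and 1.35, and the directions of Col12a1, Col16a1 and Col9a3 turned in at least 1 other setting. The rest, Col9a2 and Col20a1, were under 5 CPM in both sections.

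Among transmembrane collagens Col25a1 had the highest CPM of all collagen genes in the brain section, a level not divided by length. It ranked 2 there per kb of exon and 6 per kb of gene span. It codes for a neuronal collagen whose shed part is found in amyloid plaques and which motor axons need to reach muscle. Col25a1 was at 157 CPM in brain (153 to 161) and 51.9 in heart (49.8 to 54.05), 3.02-fold higher in brain (2.88 to 3.17), 1.98-fold outside structured RNA and 10.8-fold with background subtracted. Its heart counts lay at 1.29 times the receptor density and its brain counts at 5.03 times. Col23a1 was at 32.0 and 30.3 CPM, with a ratio of 0.9497 (0.878 to 1.03) that turned to 1.45 outside structured RNA. Col13a1, a protein of the nerve-muscle junction, was at 14.8 and 18.3 CPM, and Col17a1, of the anchors of skin epithelium, at 5.20 and 5.63, and Col17a1 turned when background was subtracted.

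Of the multiplexins, which carry fragments that restrain vessel growth, Col15a1 differed most. Col15a1, a collagen of capillary and muscle basement membranes, was at 9.18 CPM in brain (8.23 to 10.2) and 40.4 in heart (38.5 to 42.3), 4.40-fold higher (3.92 to 4.95), at 1.31 and 4.47 times the receptor density. With equal weight of spots its log2 ratio was 1.93, under the 4-fold line. Col18a1, the source of endostatin, was at 10.9 and 15.2 CPM, 1.40-fold higher in heart (1.23 to 1.58). Slc19a1 overlaps 7.72% of the Col18a1 span on the other strand. Col8a1, a network collagen of vessel walls, was at 19.3 and 32.3 CPM, 1.67-fold higher in heart (1.52 to 1.83). Col26a1 was at 14.5 and 13.4 CPM and turned outside structured RNA, and Col28a1, of peripheral nerve, at 16.02 and 19.9. Col7a1 of the skin anchoring fibrils, Col8a2 and Col10a1 were at 0.619 to 4.20 CPM in both sections, and Col10a1, a gene of growing cartilage, lies wholly inside Nt5dc1 on the other strand.

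Ranked per kb of exon, the order of the genes differed between the sections. In brain Col14a1 (13.5 CPM per kb), Col25a1 (12.1) and Col19a1 (10.9) led, followed by Col4a2 (6.74) and Col6a6 (5.91). In heart Col4a1 (18.1) and Col4a2 (16.1) led, followed by Col14a1 (11.5), Col19a1 (8.34) and Col6a6 (7.82). Col3a1 ranked 7 in heart, at 7.003 CPM per kb, and 41 of 44 in brain, at 0.494. The first 5 places in brain and the first 4 in heart were held by genes whose intervals did not touch those of their neighbours in these places. Over the whole list the intervals overlapped in 36 of 43 neighbouring pairs in brain and in 33 of 43 in heart, and those pairs are not ordered. Ranked per kb of gene span, 6 of the first 10 stayed among the first 10 in each section, with Col1a1 and Col3a1 first in heart and Col14a1 and Col6a1 first in brain.

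Partner chains of 1 molecule were then set against each other per kb of exon. A type I molecule takes 2 chains from Col1a1 and 1 from Col1a2. Their ratio was 1.86 in heart (1.74 to 1.99), from 1856 and 1888 counts, and 1.09 in brain (0.924 to 1.29), from 228 and 395. The heart counts were close to equal, and the ratio there comes from merged exon lengths of 6.563 and 12.426 kb. The coding lengths are 4359 and 4116 bases. So the heart value depends on the length used and is not read as a match to 2 chains and 1. Col4a1 and Col4a2, used in the same proportion, had a ratio of 1.12 in heart (1.08 to 1.16) and 0.768 in brain (0.715 to 0.825), and per kb of gene span 1.51 and 1.03. So the type I and type IV ratios were both lower in brain, with intervals apart, in either length. Col5a1 over Col5a2 was 1.43 in heart and 1.13 in brain, but per kb of span the ratios were 1.07 and 0.846. Type VI takes its 3 chains in equal parts. Col6a1 over Col6a2 was 1.94 in heart and 2.81 in brain, and Col6a3 over Col6a1 was 0.572 in heart and 0.493 in brain.

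Genes that make, tie, cut or bind collagen were listed with the family. Beside the shares of all features called (5.41% in heart and 17.2% in brain, and 11.4% and 28.8% by the looser rule), each list is given with the number that reached the floor of the rule. Of 18 synthesis genes 8 could be tested, and 1 was called higher in heart and 0 in brain: Serpinh1, the chaperone of the collagen coil, at 1.43 and 21.1 CPM (14.8-fold, 11.2 to 19.9). By the looser rule Plod2, which modifies lysines for crosslinks, was higher in heart (9.61 and 29.4 CPM) and P4ha3, a prolyl hydroxylase subunit, in brain (10.9 and 3.45 CPM). Those with the highest CPM, Mia3 (58.9 and 32.5 CPM), Sec31a (37.5 and 43.3) and P4ha1 (33.6 and 25.98), serve export and proline hydroxylation in many cells. Of 14 processing and crosslinking genes 5 could be tested, and Loxl2 (6.004 and 35.1 CPM, 5.85-fold) and Tgm2 (3.37 and 42.4 CPM, 12.6-fold), which join chains, were called in heart. Adamts2 (55.1 and 51.3 CPM) and Adamts3 (48.5 and 37.4 CPM), which trim the ends of fibrillar chains, were not called. Loxl1, another crosslinking enzyme, passed the looser rule in heart (2.45 and 9.12 CPM). Of 11 breakdown genes 2 could be tested and 0 were called, and Timp3 and Mmp2 passed the looser rule in heart. Timp3, an inhibitor of matrix proteases, was at 49.3 and 106 CPM, Timp2 at 64.7 and 34.9 and Mrc2, a collagen uptake receptor, at 10.02 and 17.4, and Mmp2, a gelatinase that cuts denatured collagen, at 2.77 and 13.9.

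Of 9 receptor genes 3 could be tested and 0 were called, and Itgb1 (34.4 and 112 CPM) and its partner Itga1 (15.6 and 43.2 CPM), which hold cells to collagen, passed the looser rule in heart. Ddr2, a collagen-sensing kinase, was at 16.8 and 33.2 CPM. Of 15 basement membrane partners 10 could be tested, and 4 were called in heart (5.41% of features), the laminin chains Lama5 (5.17 and 30.9 CPM) and Lamb2 (5.60 and 43.9), the linker Nid1 (9.58 and 61.4) and the proteoglycan Hspg2 (10.8 and 140, 12.9-fold). By the looser rule 8 of 15 were (11.4%), among them Lama4 (22.2 and 68.1 CPM). Lama2, the laminin of muscle and Schwann cells, was at 71.3 and 239 CPM and Lamc1 at 50.2 and 97.6. Agrn, a proteoglycan of synapses, passed the looser rule in brain (31.2 and 13.4 CPM). Of 12 fibril partners 8 could be tested, and 4 were called in heart (5.41%): the fibril-coating Dcn (7.27 and 74.2 CPM) and Bgn (2.34 and 32.5), Thbs1 (2.83 and 28.5) and Tnxb (6.17 and 42.0). By the looser rule 8 of 11 were (11.4%), among them the elastic fibre genes Eln (8.59 and 28.5 CPM) and Fbn1 (29.6 and 88.2 CPM). Sparc, a collagen-binding protein, was at 51.2 and 63.4 CPM. The medians of log2 ratios were 0.11 for synthesis, 0.76 for processing, 0.38 for breakdown, 0.50 for receptors, 1.004 for basement membrane partners and 1.71 for fibril partners, beside -0.43 for the features that averaged 5 CPM or more, a floor the lists do not have.

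Within a section, counts of single collagen genes were sparse. After each spot was thinned to 2800 counts, 88.1% of 3060 brain spots (86.9 to 89.2) and 94.3% of 2939 heart spots (93.4 to 95.1) held a count of some collagen gene. No gene came near that share. Col25a1 was in 30.5% of brain spots and 13.7% of heart spots, Col4a1 in 8.86% and 29.0%, Col4a2 in 10.5% and 24.8%, and Col3a1 in 1.41% and 15.1%. Since background counts fall in all spots, such shares do not count spots that use a gene. Single spots could hold many: up to 71 counts of Col25a1 and 40 of Col11a1 in a brain spot, and up to 34 of Col1a1 in a heart spot.

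Spots rich in fibroblast genes were then compared with the rest. The list holds 18 matrix and fibroblast genes and no collagen, and the 10% of thinned spots highest by its count, ties left out, gave 182 spots in brain and 250 in heart. In brain the sum of Col1a1, Col1a2 and Col3a1 (fibrillar types I and III) was at 176 CPM in these spots and 12.5 CPM in the rest, 14.01-fold (11.98 to 16.4). In heart it was at 491 and 120.0 CPM, 4.09-fold (3.88 to 4.32). The sum of Col6a1, Col6a2 and Col6a3 (type VI chains 1 to 3) was 4.46-fold higher in brain (3.64 to 5.43) and 2.62-fold in heart (2.39 to 2.87). The sum of Col4a1 and Col4a2 (type IV chains 1 and 2) was nearly even, 1.21-fold in brain (1.02 to 1.42) and 1.12-fold in heart (1.05 to 1.20). The receptor genes were 1.67-fold higher in these brain spots and 1.57-fold in these heart spots, so type IV lay under the background's own difference. Col1a1 had the largest fold of a member in brain, 18.2 (13.6 to 24.3), and Col5a2 in heart, 4.57 (4.10 to 5.08). At least 2-fold with 5 CPM was reached by 22 of 43 members tested in brain (14.4% of all features) and 18 of 40 in heart (12.5%).

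Other lists gave other orders. In the 188 brain spots rich in meninges and mesothelium genes fibrillar types I and III were 24.6-fold higher (21.1 to 28.6), where the receptor genes were 2.24-fold higher. Spots rich in smooth muscle and pericyte genes had them 6.92-fold higher in brain (5.83 to 8.18) but at 0.783-fold in heart (0.719 to 0.851). In the 264 heart spots rich in atrial genes they were 3.06-fold higher (2.89 to 3.23), and in the 270 rich in cardiomyocyte genes at 0.465-fold (0.421 to 0.512). The receptor genes were at 1.38-fold in the atrial-rich spots and 0.725-fold in the cardiomyocyte-rich spots. In smooth muscle-rich spots the receptor genes were at 1.31-fold in brain and 0.948-fold in heart. Type IV chains 1 and 2 kept between 0.925-fold and 1.06-fold in those 3 heart sets. In the 197 brain spots rich in choroid plexus genes Col9a3 was 8.80-fold higher (6.35 to 12.1), Col8a1 6.86-fold (5.76 to 8.14) and Col8a2 6.70-fold (4.55 to 9.70). Depth differed between these sets: fibroblast-rich brain spots had a median of 5219.5 counts against 8110.5 in the rest. Cardiomyocyte-rich heart spots had 20133.5 against 10808.

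**Figure D3:**
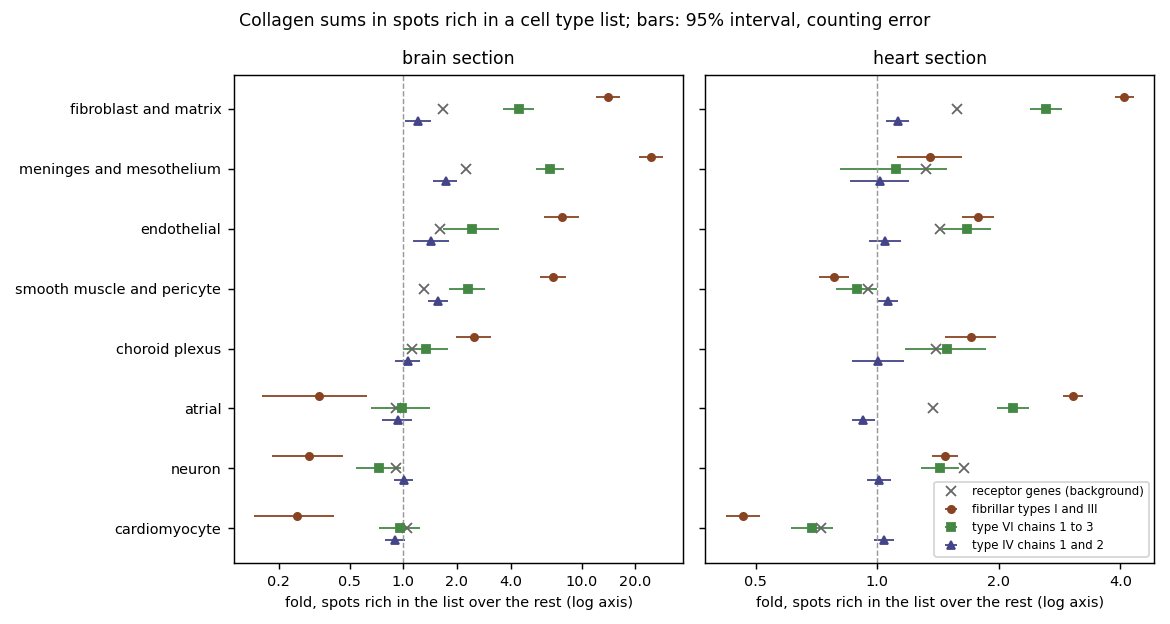
Fold of 3 collagen sums in spots rich in a cell type list over the remaining spots (x, log axis) for 8 lists (y), brain left and heart right, with 95% intervals for counting error; crosses give the receptor genes as background. Fibrillar types I and III spread from 0.252-fold to 24.6-fold in brain, while type IV chains 1 and 2 stay between 0.901-fold and 1.73-fold.

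Groups of spots were formed from expression with all collagen and listed genes left out, and are called by number and leading genes. Of the 10 brain groups, group 2 (271 spots, led by Ptgds, Thbd, Fmod, Aebp1, Ogn and Slc47a1) was the richest in collagen, with a sum of 2220 CPM, 2.66-fold over the other groups (2.56 to 2.75). In it 29 of 43 members tested were at least 2-fold higher with 5 CPM, where 24.7% of all features were. The receptor genes were 2.28-fold higher there too. With a lower bound above that fold, 19 members remained (5.95% of features). Col1a1 was at 83.3 CPM in the group and 2.97 in the rest, 28.04-fold (21.4 to 36.7), Col1a2 at 134 and 5.58, 23.995-fold (19.6 to 29.4), and Col3a1 at 53.3 and 2.86, 18.6-fold (13.7 to 25.3). These spots, 271 of 4080, held 53.5%, 49.6% and 43.3% of the brain counts of the 3 genes.

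Chains 1 to 3 of type VI stood above the receptor genes in that group, and chains 1 and 2 of type IV did not. Col6a2 was at 53.3 and 2.80 CPM, 19.003-fold higher (13.9 to 25.8), and Col6a1 7.201-fold (5.31 to 9.65). Col9a2 was 6.51-fold higher (4.09 to 10.04), Col23a1 6.27-fold (5.42 to 7.23), Col12a1 5.89-fold (4.79 to 7.19) and Col5a2 5.25-fold (4.09 to 6.66). Of the other type IV chains Col4a5 (4.48-fold, 3.49 to 5.70), Col4a3 (3.96-fold, 2.86 to 5.39) and Col4a6 (3.69-fold, 2.92 to 4.62) stood above the receptor genes too, and of type VI Col6a4, Col6a5 and Col6a6 did not. Col4a1 (2.18-fold, 1.79 to 2.64), Col4a2 (1.53-fold, 1.24 to 1.88) and Col15a1 (2.18-fold, 1.42 to 3.21) had no lower bound above the fold of the receptor genes. Other markers moved with them: the meninges and mesothelium list, 10 genes, stood at 1488 CPM in the group and 18.2 to 260.4 CPM in the other groups, the fibroblast list at 962 CPM (5.38-fold), the endothelial list at 588 (3.82-fold) and the smooth muscle and pericyte list at 481 (4.65-fold). Their part in the collagen folds was not tested. The epithelium and skin list was 7.58-fold higher, at 54.6 CPM.

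Group 2 was the highest brain group of 30 members, and the other 14 were highest elsewhere. The receptor genes were densest in group 2 too, at 0.144 CPM per kb against at most 0.0929 in another group. The share of all features highest in group 2 was not counted, so the 30 are not read as a trait of collagens. Group 9 (128 spots, led by 4921539H07Rik, Neurod6 and Hpca) had Col11a1 at 129 CPM against 22.04 CPM in the rest, 5.88-fold (5.27 to 6.55), and held 47.8% of its brain counts. No other member reached 2-fold there, where 2.43% of features did, and fibrillar types I and III were at 0.266-fold. Group 6 (109 spots, led by Ttr, Sostdc1, Avp, Kl, Enpp2 and Clic6, with the choroid plexus list 40.4-fold higher) had Col9a3 at 26.8 CPM against 3.61 CPM in the rest (7.42-fold, 5.43 to 10.1), Col8a2 at 20.4 and 3.03 (6.72-fold, 4.71 to 9.48), Col8a1 at 70.3 and 15.6 (4.49-fold, 3.77 to 5.34) and Col5a3 at 15.2 and 3.55 (4.28-fold, 2.89 to 6.197). In that group 7 of 40 members were at least 2-fold higher (8.65% of features), and the receptor genes were 1.27-fold higher. In group 1 (251 spots, led by Mog, Mobp and Cldn11, genes of myelin) Col2a1 was 7.82-fold higher (4.74 to 12.4) and Col11a2 5.29-fold (3.23 to 8.24), each on 22 counts in the group. Neither rise was particular to group 1. Both genes also reached 2-fold with a lower bound above the receptor genes in group 0, as did Col2a1 in group 5 and Col11a2 in group 8. In group 2 both reached 2-fold without such a bound. Col19a1 was highest in group 4 (1006 spots, led by Pdzrn3, Hs3st2 and Mef2c), at 110 CPM and 1.90-fold (1.77 to 2.05). Col25a1 had 324 CPM in group 2, 2.16-fold (1.96 to 2.38) and not above the receptor genes there, and 229 in group 3, and was lowest in group 9, at 83.2 CPM. Col6a6 was the most even, from 49.4 to 79.9 CPM, followed by Col4a2, from 32.5 to 66.9 CPM.

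In the other brain groups fewer members stood out than in group 2. At least 2-fold with 5 CPM was reached by 6 of 40 in the shallow group 0 (5.68% of features; median 1245 counts a spot), 4 of 39 in group 1 (13%), 0 of 38 in group 3 (3.46%), 1 of 40 in group 4 (1.42%), 2 of 40 in group 5 (2.45%), 1 of 37 in group 7 (8.34%) and 2 of 37 in group 8 (4.56%). The lower bound was above the receptor genes for 5 members in group 0 (3.97%), 3 in group 1 (9.06%), 1 in group 3 (18.5%), 5 in group 4 (14.1%), 2 in group 5 (19%), 9 in group 6 (11.2%), 2 in group 7 (8.78%), 2 in group 8 (10.2%) and 2 in group 9 (15.4%). The 1 in group 3, led by Shox2 and Prkcd, was Col25a1, and Col4a1, Col4a2, Col6a1, Col14a1 and Col19a1 were the 5 in group 4. The 5 in group 0 were Col1a1, Col1a2, Col2a1, Col11a2 and Col22a1. So the rise of Col1a1 and Col1a2 was not confined to group 2. In group 0 the members past the 2 rules were 15% and 12.5% of those tested, above the shares of features. The meninges and mesothelium list was 2.61-fold higher there and the receptor genes 1.21-fold.

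**Figure D4:**
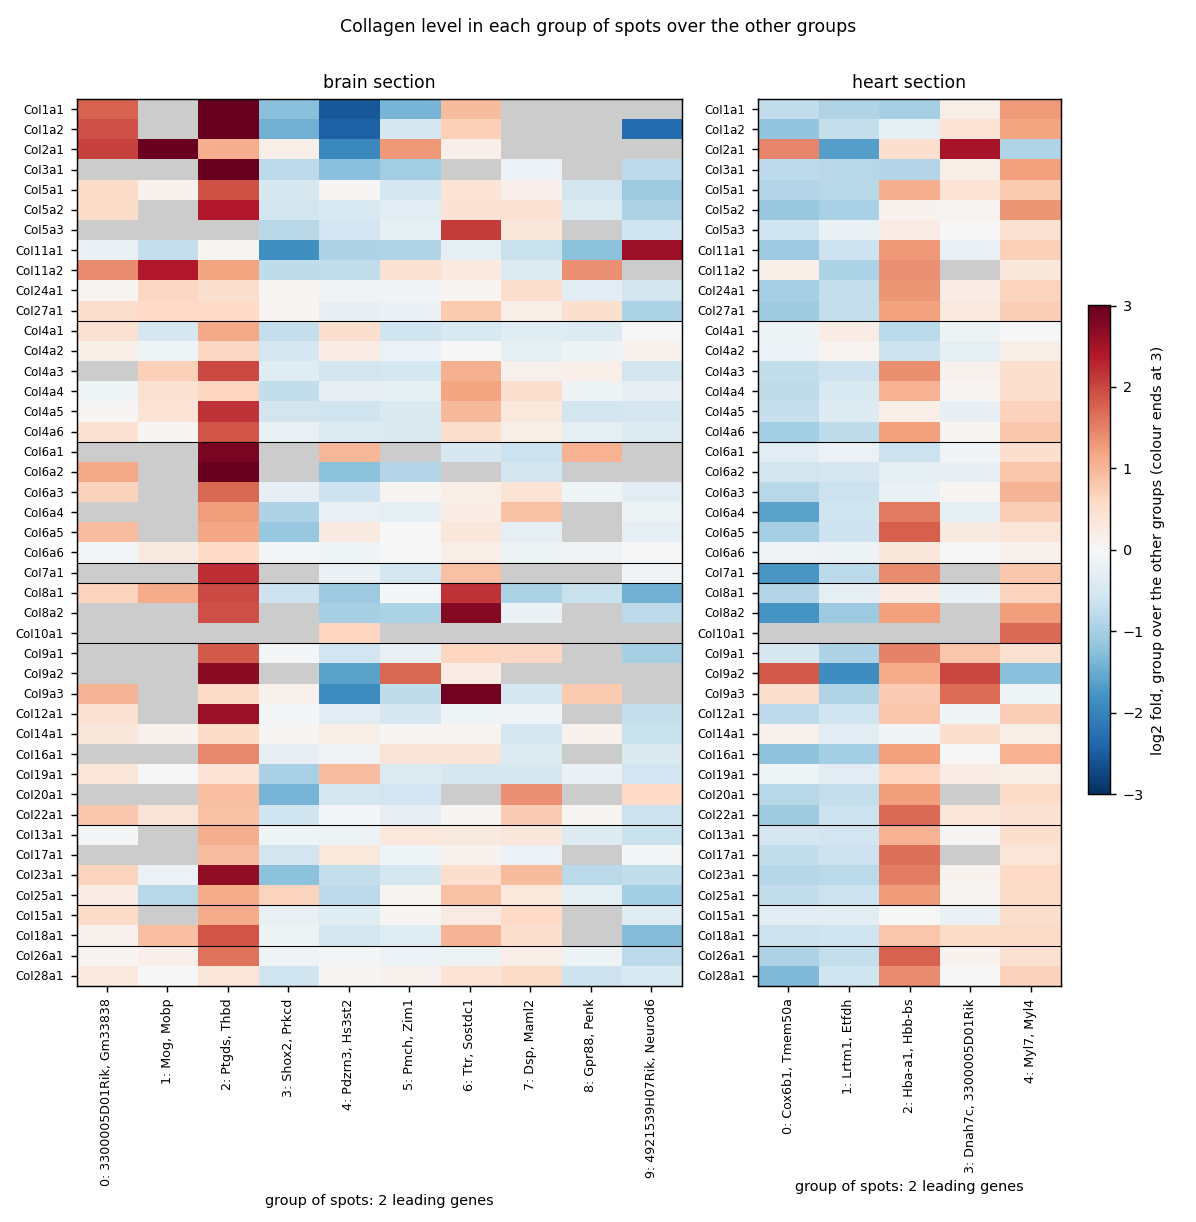
Log2 fold of each collagen gene (rows, by class) in each group of spots over the other groups of its section, for 10 brain groups and 5 heart groups, named by number and 2 leading genes; grey cells hold under 10 counts, and the colour ends at 3. Group 2 of the brain section is the highest group of 30 members and of the receptor genes, and Col11a1 stands out in group 9 at 5.88-fold.

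The heart section gave 5 groups with smaller differences. Group 4 (635 spots, led by the atrial genes Myl7, Myl4, Dkk3 and Nppa with Prg4 and Fgf12) had a collagen sum of 1632 CPM, 1.46-fold over the rest (1.43 to 1.48), while the receptor genes were 1.49-fold higher. Col5a2 was at 61.0 CPM in it and 24.5 in the rest, 2.49-fold (2.26 to 2.75), Col1a1 at 66.8 and 27.4, 2.44-fold (2.22 to 2.68), and Col3a1 at 109 and 46.1, 2.36-fold (2.19 to 2.54). At least 2-fold was reached by 7 of 40 members (1.82% of features), and 11 had a lower bound above the receptor genes (4.75%). Type IV chains 1 and 2 were even, at 250 CPM in the group and 236 in the rest. At a finer grouping, with a resolution of 1.0 in place of 0.6, group 4 came apart. Of its spots 398 fell in a group led by Lrtm1, Kcnd2 and Abca8a with fibrillar types I and III at 0.884-fold, and 235 fell in one led by Myl7, Sln and Prg4 with the same sum at 504 CPM and 4.46-fold (4.24 to 4.69). In the second group, Col1a1 was 4.95-fold higher (4.49 to 5.45), type VI chains 1 to 3 2.75-fold and type IV chains 1 and 2 0.969-fold. The fibroblast list was 3.44-fold higher there and the atrial list 14.2-fold, and their part was not tested. In the finer group led by Lrtm1, which took 398 of the 635 spots, these lists were at 0.868-fold and 0.462-fold. So the folds of group 4 are not those of atrial spots alone.

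Group 2 of the heart section (337 spots), led by the globin genes Hba-a1, Hbb-bs and Hbb-bt, had 23 of 43 members at least 2-fold higher, but 43.1% of all features were. The receptor genes were 2.76-fold higher there, and 0 members had a lower bound above that (4.12% of features). Fibrillar types I and III were at 0.610-fold in it and type IV chains 1 and 2 at 0.5999-fold. In the shallow group 3 (780 spots, median 1081 counts) Col2a1 was 5.54-fold higher (4.05 to 7.44) on 53 counts and Col9a2 4.01-fold (2.45 to 6.26) on 22. The same genes were the members that reached 2-fold in group 0 (1084 spots, median 7417.5 counts), also with a lower bound above the receptor genes. Col4a1 was highest in group 1 (890 spots, led by Lrtm1, Etfdh and Fabp4), at 148 CPM against 78.8 in group 2, so its whole range over the heart groups was 1.88-fold. At least 2-fold was reached by 2 of 40 members in group 0 (0.206% of features), 0 of 39 in group 1 (0%) and 3 of 41 in group 3 (3.97%), and the lower bound was above the receptor genes for 3 members in group 0 (2.19%), 1 in group 1 (8.9%) and 4 in group 3 (2.72%).

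The genes most like a collagen sum across groups were taken by the Pearson correlation of log folds, as a description with no test. Over the 10 brain groups the 5 closest of 5255 genes to fibrillar types I and III were Cmc1 (0.951), Angpt1 (0.948), Samd4b (0.942), Adamts9 (0.936) and Cpq (0.926), and the closest to type IV chains 1 and 2 were Lrp1 (0.919), Hdac4 (0.913), Trabd2b (0.897), Fhl2 (0.884) and Sh3pxd2a (0.848). The heart section has 5 groups only, where such values run high for many genes: Actn4, Gpx3, Smad7, Bgn and Ltbp4 were closest to the fibrillar sum, from 0.992 to 0.998, and Kitl, Ddx6, Pcdh7, Slk and Rps3a1 to the type IV sum. The groups of a section share a library. Across thinned spots Spearman rho was weak throughout, at most 0.333 in brain, between fibrillar types I and III and the meninges and mesothelium list, and 0.155 between Col1a1 and Col1a2 there. Col4a1 and Col4a2 gave 0.00811 in brain and 0.0228 in heart. Of thinned spots, 8.86% and 10.5% held a count of these 2 genes in brain, and 29.0% and 24.8% in heart. Counts this sparse can keep rho near 0, so the low values do not show that the chains vary apart.

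Most of the genes also have a feature of their exons that no count was used for. Exons of 54 bases, which code for 6 repeats of glycine and 2 other residues, made up 23.4% of the 2004 coding exons of the 44 genes in the older annotation and 0.443% of 197533 coding exons of other genes. Lengths that are multiples of 9 bases made up 61.8% and 14.02%. The share of 54-base exons was 47.0% in the fibrillar class, from 41.2% to 55.0% by gene, 25.2% in the fibril-associated class, 7.83% in type VI and 4.05% in type IV. Col8a1, Col8a2, Col10a1 and Col26a1 had 0 such exons. The fibrillar genes thus share this structure whether they were higher in heart, as Col3a1 and Col1a1 were, or in brain, as Col11a1 was, with 46.3% of its exons at 54 bases.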

How the data were processed

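The authors deposited whole-number counts per gene and spot barcode for 1 brain and 1 heart library, aligned and counted with STARsolo on mouse build mm39, per the submitters' processing notes. The STARsolo version, the merging of duplicate molecules and the use of strand and introns are not given in the sources used here, and reads that fall in introns or in overlapping genes could move a level. The members and gene lists were chosen with earlier results of these data known.

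From the counts, spots with at least 500 counts and 200 features were kept, and counts were summed per section and scaled to CPM. Intervals are 95% Poisson for levels, exact binomial for shares and for ratios of 2 counts, with no p-values. The background is the density of 1551 olfactory and vomeronasal receptor genes per kb of gene span. Gene spans, merged exon lengths and overlaps came by gene ID from GENCODE mouse release 21 (GRCm38), which held 35500 of the 40276 IDs, and no coordinate was carried to mm39. Promoters came from RefSeq on GRCm38.p6.

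Spots were thinned to 2800 counts for shares and for choosing spots rich in 1 of 16 marker lists, leaving out 1020 brain and 787 heart spots. Folds in spots chosen this way used all their counts. Spots were grouped with scanpy 1.11.5 (2000 variable genes, 20 principal components, 15 neighbours, Leiden resolution 0.6, seed 1), with 3401 features left out: all collagens, the listed genes and structured RNA. No doublet caller was run, since a spot is not a cell. Members with at least 5 CPM in either section are given with full values, the others by range and where a group of spots stood out. Other genes named are the 3 genes with the highest CPM of each of 6 pathway lists and those past a rule of size. The density threshold of 2, the lower-bound rule for groups and the closer look at the split heart group were chosen after seeing the data. Code ran on Python 3.11.15 with numpy 2.4.6, scipy 1.17.1 and pandas 2.3.3, and was tested on simulated data. Alternatives were the scaling, the spot threshold, equal weight of spots, background subtraction, the rule of size, the length used, the cut for rich spots, thinning and the grouping resolution.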

Additional observations from a re-analysis of the deposited data

Results flagged for a closer look

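Barcodes under the spot threshold, which the values reported leave out and only the setting with all barcodes takes in, also held collagen counts. In brain 912 such barcodes held 259 collagen counts, 0.165% of their 156957 counts (0.146 to 0.186), and in heart 1266 held 267, 0.172% of 154831 (0.152 to 0.194). The kept spots had 0.0890% and 0.130%.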

How the results depend on the processing

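Each tissue is 1 library, so the intervals cover counting error only, and 16 genes lay under 2 times the receptor density in both sections. No paired analysis was possible because each tissue has 1 library. The 3 heart calls became 12 outside structured RNA, 1 with equal weight of spots, 9 with background subtracted and 14 by the looser rule, and the 0 brain calls became 2 with background subtracted and 1 by the looser rule. The log2 ratio of the sum, 0.55, became 1.16, 0.46 and 0.65 in the first 3 of these settings. Of the first 10 genes per kb of exon 6 stayed per kb of span in brain and 6 in heart. Per kb of span the brain ratios became 1.03 for Col4a1 over Col4a2, 0.846 for Col5a1 over Col5a2 and 0.2997 for Col6a3 over Col6a1, and the heart ratios 2.15 for Col1a1 over Col1a2, 1.51, 1.07, 1.64 for Col6a1 over Col6a2 and 0.348. With background subtracted they became 0.711 for Col5a1 over Col5a2, 3.83 for Col6a1 over Col6a2 and 0.268 for Col6a3 over Col6a1 in brain, and 1.17 for Col4a1 over Col4a2 and 0.485 for Col6a3 over Col6a1 in heart. Without thinning 92.5% of brain and 95.2% of heart spots held a collagen count. In the highest 5% and 20% of spots by fibroblast genes the fibrillar fold was 18.3 and 8.26 in brain and 5.29 and 3.40 in heart, and the type VI fold 6.11 and 2.69 in brain and 3.31 and 2.28 in heart. At resolution 0.3 the fibrillar, type IV and type VI folds became 17.999, 1.58 and 4.79 in brain group 2 and 1.68, 1.24 and 1.45 in heart group 4. At resolution 1.0 the heart group 4 fibrillar fold turned to 0.884 and its type VI fold became 1.03. The causes of these shifts were not tested. The other 31 of these main values kept their direction and stayed within their intervals or within 1.5 times of a count. The log2 ratios of single genes were counted apart from them: over the settings 101 moved and 116 did not.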
